A study of Mus musculus with 6 samples.

Results

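The expression of 9 genes that encode immune regulatory surface and secreted proteins was examined in cancer-associated fibroblasts (CAFs) of mouse mammary tumors. The genes were taken by symbol from a list drawn up with earlier results of these data known, the rule itself using no measured value, and all 9 were found among the 27179 genes of the count table. They comprise 4 checkpoint ligands (Cd274, Pdcd1lg2, Cd276 and Cd200), 2 ectonucleotidases (Nt5e and Entpd1) and 3 galectins (Lgals1, Lgals3 and Lgals9).

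Checkpoint ligands are surface proteins that dampen immune cells carrying the matching receptor. Cd274 encodes PD-L1 and Pdcd1lg2 encodes PD-L2, both of which bind PD-1 on T cells, and Cd274 is a known target of interferon-gamma signaling through the JAK kinases and IRF1. Ectonucleotidases act in sequence outside the cell: Entpd1 (CD39) cleaves extracellular ATP and ADP to AMP, and Nt5e (CD73), which is also a classical surface marker of mesenchymal stromal cells, converts AMP to adenosine, a suppressor of T cells. Galectins are secreted lectins that bind beta-galactosides on glycoproteins, and several of them restrain T cells. Fibroblasts of many tissues express genes of all 3 classes.

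The CAFs came from 3 tumors of female raGFP-Wnt1 mice. These mice carry a Wnt1 transgene under the MMTV promoter, which drives mammary tumors, together with a Pdgfra H2B-GFP reporter that labels Pdgfra-expressing cells with nuclear green fluorescent protein, so the libraries cover Pdgfra-expressing CAFs of this model. GFP+ cells of each tumor were sorted into a CD34 negative (CD34-) and a CD34 positive (CD34+) fraction, which gave 3 libraries per group, and each CD34- library is paired with the CD34+ library of the same tumor. The series design calls the fractions CD34-low and CD34-high. No untreated gland or other control tissue was part of the comparison, and the age of the mice was not given. All libraries carried the Wnt1 transgene and the reporter, which is a heterozygous knock-in. The Wnt1 line was of the FVB/NJ strain and was crossed to a reporter line of a different strain.

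Library totals lay between 16238059 and 86609267 counts, both in CD34+ libraries, and those of the CD34- libraries lay between 35310817 and 59685694. Cd34, the gene of the sorting marker, fell by 3.63 on the log2 scale in CD34- CAFs (limma-voom, adjusted p = 0.0414) and was lower in 3 of 3 tumors, which matched the labels. The fibroblast marker Pdgfra was abundant in all 6 libraries, at 311 to 503 CPM, the count scaled to a common library size. The CD34- library of tumor 3 stood apart from the other 5 on the first principal component, which held 48.4% of the variance, and 159 genes that averaged 2 CPM or more elsewhere had no count in it, against 1 to 31 such genes in the others. It was kept.

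Promoter stretches are shown for Cd274 and Nt5e, the genes with the clearest differences below, and for Lgals9. Its promoter alone among those found held exact matches to an interferon-type motif. The sequences are from RefSeq for GRCm38.p6, where 8 of the 9 genes matched a promoter entry of 250 bases before to 50 bases after a start site. Lgals1 did not match. Each is written 5′ to 3′ on the gene's strand and ends at the base before that start site, and capitals mark a GC box (GGGCGG, either strand) in Cd274 and Nt5e and an interferon-stimulated response element (ISRE, which is GAAA, any 2 bases and GAAA, either strand) in Lgals9. The Cd274 stretch lies at chr19:29367318-29367437 on the plus strand, the Nt5e stretch at chr9:88327489-88327608 on the plus strand and the Lgals9 stretch at chr11:78984925-78985014 on the minus strand. The Cd274 stretch lies inside the gene coordinates, which begin at 29362107, so its start site is not the outermost one.
Cd274: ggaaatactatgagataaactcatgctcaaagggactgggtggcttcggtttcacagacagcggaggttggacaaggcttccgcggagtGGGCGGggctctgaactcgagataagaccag
Nt5e: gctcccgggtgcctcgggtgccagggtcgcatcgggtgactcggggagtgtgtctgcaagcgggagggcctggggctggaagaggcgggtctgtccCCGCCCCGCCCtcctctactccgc
Lgals9: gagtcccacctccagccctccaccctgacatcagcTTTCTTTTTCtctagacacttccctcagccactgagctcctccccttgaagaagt

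Over the full 300-base windows, Cd200, Cd274, Cd276, Lgals3 and Nt5e held a GC box, which was present in 35.7% of the 32851 promoters in the table. The Lgals9 window held 2 ISRE matches, the one in capitals and one just after the start site, and 3.44% of all promoters held at least one. Neither the Cd274 nor the Nt5e window held an ISRE, a gamma-activated site (TTCNNNGAA, in 8.3% of promoters) or a TATA box (TATAAA, in 13.6%). The core hypoxia response element (ACGTG, in 19.6%) occurred in the Cd274 window alone. The windows of Entpd1 and Pdcd1lg2 held none of the 8 motifs searched, which also comprised AP-1 (TGANTCA), CRE (TGACGTCA) and TCF/LEF (ATCAAAG). These are exact matches of letters in a window, so elements that differ from a pattern by a base would be missed, and no binding was measured.

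To determine which of these genes differ between CD34- and CD34+ CAFs, all genes were compared with limma-voom, once without a term for the tumor and once with the tumor as a block, so that each CD34- library is set against the CD34+ library of its own tumor. Fold changes are CD34- relative to CD34+ and adjusted p-values are over the 14855 genes that passed the filter on low counts. Of the 9 genes, 8 passed it, all but Pdcd1lg2. Without the block, 0 of the 8 genes had an adjusted p under 0.05, against a background of 0.121% of all tested genes (0.0202% higher and 0.101% lower in CD34- CAFs). At an unadjusted p under 0.05 there were 2, Cd200 and Nt5e, against 14.3% of all genes. After adjustment 0 of the 8 passed by edgeR, against 9 of all 14855 genes, and 1 by DESeq2, against 698. With the block, 2 of the 8 passed the adjusted threshold, Cd274 in the higher and Nt5e in the lower direction, against a background of 8.57% (4.32% higher and 4.25% lower). The sign was the same in 3 of 3 tumors for 4 of the 8 genes, against 46.3% of all tested genes. Without the CD34- library of tumor 3, the one that stood apart, the log2 fold changes without the block were 0.98 for Cd274, -1.52 for Cd200, -1.53 for Nt5e and -0.14 for Entpd1, and none passed (limma-voom, adjusted p from 0.166 to 0.936). In that fit 0 of all 15559 tested genes passed, so the lack of calls was not particular to these genes.

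**Figure D1:**
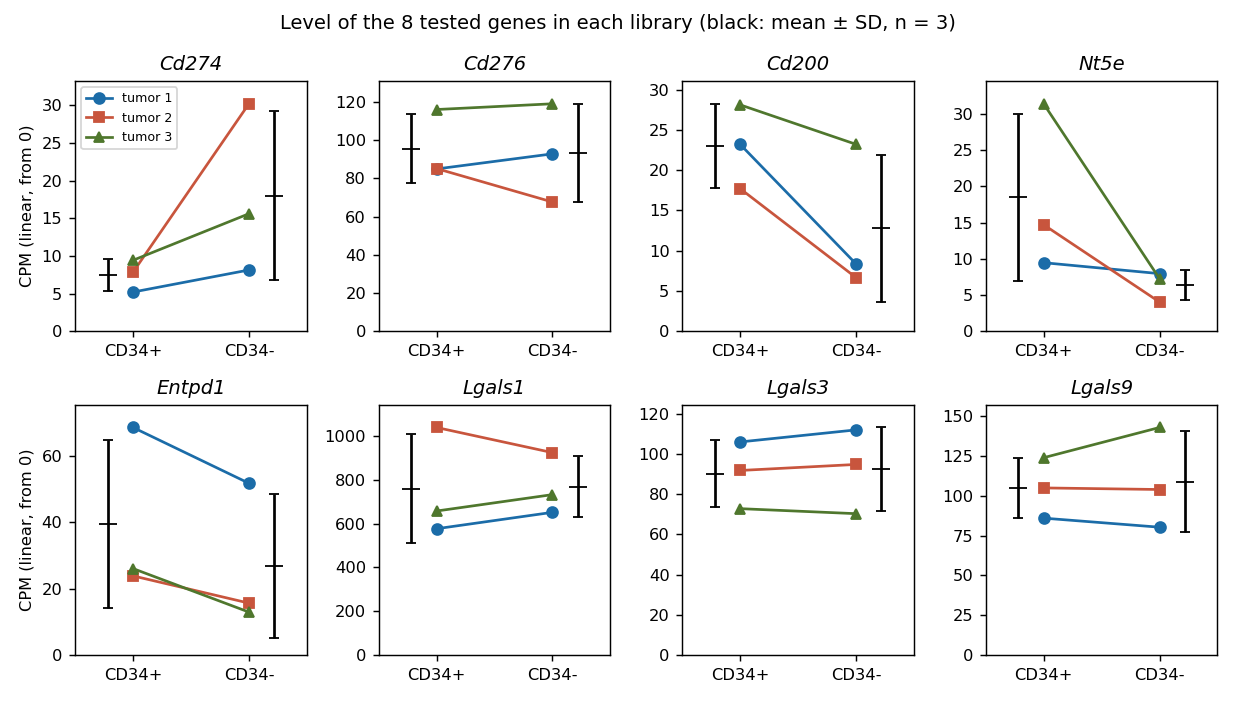
CPM of each tested gene (linear axis from 0) in the CD34+ and CD34- library of each tumor, with lines joining libraries of 1 tumor and black bars giving mean ± SD, n = 3. Cd274 rises along all 3 lines, Cd200, Nt5e and Entpd1 fall along all 3, and the galectins and Cd276 run nearly level while the tumors differ in height.

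Cd274 (PD-L1, gene ID 60533, GRCm38.p6 chr19:29362107-29388095, plus strand) was the checkpoint ligand with more transcript in CD34- CAFs. CD34+ libraries 1, 2 and 3, numbered by tumor, had 5.2, 7.84 and 9.42 CPM (84, 670 and 267 counts). CD34- libraries 1, 2 and 3 had 8.13, 30.2 and 15.6 CPM (457, 1363 and 566 counts). The CD34- library was the higher one in each tumor, most of all in tumor 2, but the groups overlapped because the CD34- library of tumor 1 lay below the CD34+ library of tumor 3.

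Mean Cd274 expression was 18.0 ± 11.2 CPM (SD, n = 3) in CD34- and 7.48 ± 2.13 CPM in CD34+ CAFs. The log2 fold change without the block was 0.97 ± 0.54 (SE), a 1.96-fold difference with a 95% interval of -0.26 to 2.21, and did not pass (limma-voom, adjusted p = 0.452). With the tumor as a block the log2 fold change was 1.48 ± 0.30 and passed (limma-voom, adjusted p = 0.0172). Within tumors 1, 2 and 3 the log2 ratio was 0.64, 1.94 and 0.72.

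The Cd274 result rested on tumor 2. With the block and without tumor 2, the log2 fold change was 0.68 and did not pass (limma-voom, adjusted p = 0.655), whereas without tumor 1 or tumor 3 it was 1.64 or 1.69 and passed. Blocked fits with a tumor left out keep few residual degrees of freedom, so their p-values rest mostly on variances pooled across genes. Without the block, the log2 fold change was 0.46 when the CD34- library of tumor 2 was left out and 1.51 when that of tumor 1 was left out. The blocked fit by edgeR gave 1.11 with an adjusted p of 0.124, that by DESeq2 gave 1.1 with an adjusted p of 0.0303, and a limma-voom fit that treats the tumor as random gave an adjusted p of 0.181. Cd274 overlaps the gene Plgrkt at its 5′ end, up to position 29367292, and whether the counting used strand was not stated. That overlap ends before the start site of the promoter stretch shown. Plgrkt held 7040 counts in all against 3407 of Cd274, and its log2 fold change of -0.05 with the block did not pass (limma-voom, adjusted p = 0.903).

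Pdcd1lg2 (PD-L2, gene ID 58205, chr19:29410919-29472927, plus strand), the neighbor of Cd274 on chromosome 19, was near the limit of detection. It had 0 counts in each CD34+ library and 5, 5 and 0 counts in CD34- libraries 1, 2 and 3, or 10 counts in all. A count of 0 allows up to 3 counts, which is 0.186, 0.0351 and 0.106 CPM in CD34+ libraries 1, 2 and 3. The CD34- values were 0.089, 0.111 and 0 CPM. In tumors 1 and 3 they lay below the limit of the CD34+ library of the same tumor, so no difference was detectable there, and in tumor 2 the value, 5 counts against 0, lay above it. With 10 counts in all the gene was not tested.

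Cd276 (B7-H3, gene ID 102657, chr9:58524300-58555033, minus strand), a B7 family protein known from many tumors and their stroma, was the most abundant of the 4 checkpoint ligands. CD34+ libraries 1, 2 and 3 had 84.9, 85.1 and 116 CPM, and CD34- libraries had 92.8, 67.6 and 119 CPM. The groups overlapped, with both libraries of tumor 3 above the other 4. Its log2 fold change was -0.07 ± 0.24, with a 95% interval of -0.63 to 0.49 (limma-voom, adjusted p = 0.926), which narrowed to -0.39 to 0.25 with the block (limma-voom, adjusted p = 0.833). The sign differed between tumors, at log2 ratios of 0.13, -0.33 and 0.03.

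Cd200 (gene ID 17470, chr16:45382111-45409060, minus strand) encodes a surface protein that restrains myeloid cells through the receptor Cd200r1. CD34+ libraries 1, 2 and 3 had 23.2, 17.7 and 28.1 CPM, and CD34- libraries had 8.36, 6.66 and 23.2 CPM. CD34- libraries 1 and 2 were below all CD34+ libraries, while that of tumor 3, the library that stood apart on the first principal component, reached the level of CD34+ library 1. Means were 12.8 ± 9.12 CPM in CD34- and 23 ± 5.23 CPM in CD34+ CAFs (SD, n = 3).

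The log2 fold change of Cd200 was -1.05 ± 0.42, or 2.07-fold lower in CD34- CAFs, with a 95% interval of -2.02 to -0.09, and did not pass (limma-voom, adjusted p = 0.316). With the block it was -0.93 ± 0.28 (limma-voom, adjusted p = 0.075), and Cd200 was lower in 3 of 3 tumors, at log2 ratios of -1.47, -1.40 and -0.27. Tumor 3 set the size. Without it the blocked log2 fold change was -1.45 and passed (limma-voom, adjusted p = 0.0017), whereas without tumor 1 or tumor 2 it was -0.74 or -0.73 and did not. These p-values carry the limit given for Cd274. By DESeq2 with the block and all 3 tumors it was -1.06 and passed (adjusted p = 0.0159). It did not pass by edgeR with the block (adjusted p = 0.109) or when limma-voom treated the tumor as random (adjusted p = 0.0906).

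**Figure D2:**
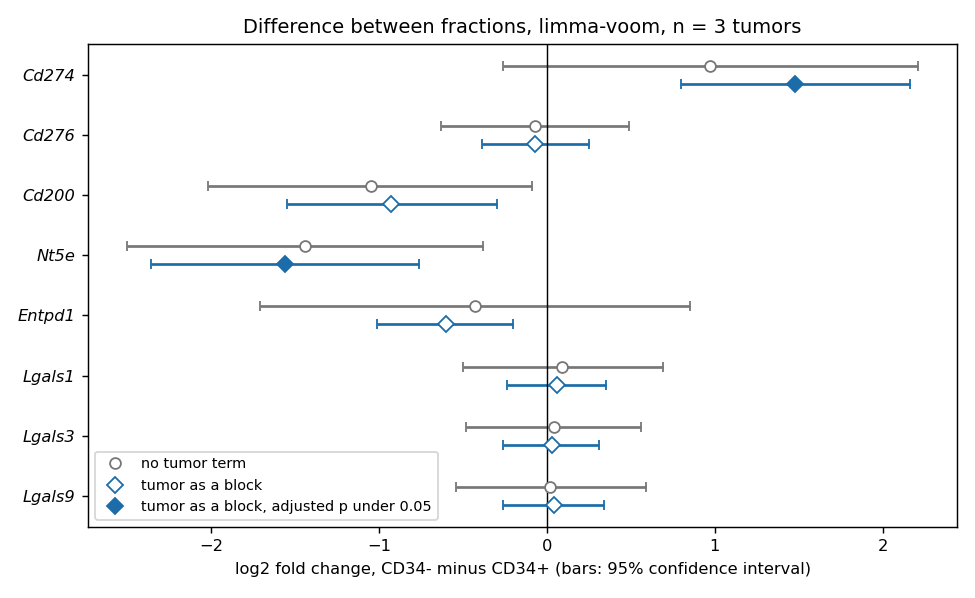
Log2 fold change (x axis, CD34- minus CD34+) of the 8 tested genes by limma-voom without a tumor term (circles) and with the tumor as a block (diamonds), with 95% confidence intervals. Filled symbols have an adjusted p under 0.05 over all genes, which only the blocked values of Cd274 (1.48) and Nt5e (-1.56) reached. The intervals of Cd276 and the 3 galectins are centered near 0.

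Among the ectonucleotidases, Nt5e (CD73, gene ID 23959, chr9:88327609-88372089, plus strand) was the only one of the 8 tested genes whose groups did not overlap, against 20.5% of all tested genes (10.0% in the lower direction). CD34+ libraries 1, 2 and 3 had 9.46, 14.7 and 31.4 CPM, and CD34- libraries had 7.95, 4.03 and 7.26 CPM. The gap between the groups was narrow in tumor 1, where the 2 libraries differed by a log2 ratio of -0.25, and wide in tumors 2 and 3, at -1.86 and -2.11. Means were 6.41 ± 2.10 CPM in CD34- and 18.5 ± 11.5 CPM in CD34+ CAFs (SD, n = 3), and most of the spread among CD34+ libraries came from tumor 3.

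Nt5e had the largest difference of the 8 genes without the block, a log2 fold change of -1.44 ± 0.46, or 2.72-fold lower in CD34- CAFs, with a 95% interval of -2.50 to -0.38, which did not pass (limma-voom, adjusted p = 0.222). It fell by 1.56 ± 0.35 on the log2 scale with the block (limma-voom, adjusted p = 0.0265). The direction held without each tumor in turn, at -2.01, -1.45 and -1.20 without tumor 1, 2 and 3, with adjusted p-values of 0.00403, 0.0201 and 0.0434 by limma-voom. With so few residual degrees of freedom these p-values rest mostly on variances pooled across genes. Nt5e passed by DESeq2 without the block (adjusted p = 0.0446) and with it (adjusted p = 0.00926). It did not pass by edgeR with the block (adjusted p = 0.114) or when limma-voom treated the tumor as random (adjusted p = 0.0724).

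Entpd1 (CD39, gene ID 12495, chr19:40612366-40741602, plus strand) was lower in the CD34- library of each tumor, but by less than the tumors differed among themselves. CD34+ libraries 1, 2 and 3 had 68.5, 23.8 and 26.0 CPM, and CD34- libraries had 51.7, 15.6 and 12.9 CPM. Both libraries of tumor 1 were above the other 4, so the groups overlapped. Without the block the log2 fold change was -0.43 ± 0.56 (limma-voom, adjusted p = 0.763), and with it -0.60 ± 0.18, with a 95% interval of -1.01 to -0.20 (limma-voom, adjusted p = 0.0743). The log2 ratios within tumors 1, 2 and 3 were -0.41, -0.61 and -1.01. By DESeq2 with the block the value was -0.68 and passed (adjusted p = 0.025), but it did not pass by edgeR with the block (adjusted p = 0.0996) or when limma-voom treated the tumor as random (adjusted p = 0.479). Without the block, the log2 fold change ranged from -0.08 without the CD34+ library of tumor 1 to -1.13 without the CD34- library of tumor 1. It was -0.14, -0.17 and -0.78 without CD34- library 3, CD34- library 2 and CD34+ library 2.

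Both enzymes of the ATP-to-adenosine sequence thus had lower values in the CD34- fraction of every tumor, and the call with the block was made for Nt5e alone. Per gene length, the ratio of Nt5e to Entpd1 was 0.162, 0.725 and 1.42 in CD34+ libraries 1, 2 and 3 and 0.18, 0.303 and 0.66 in CD34- libraries. The ratio was lowest in both libraries of tumor 1, and only CD34+ library 3 had more Nt5e than Entpd1.

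**Figure D3:**
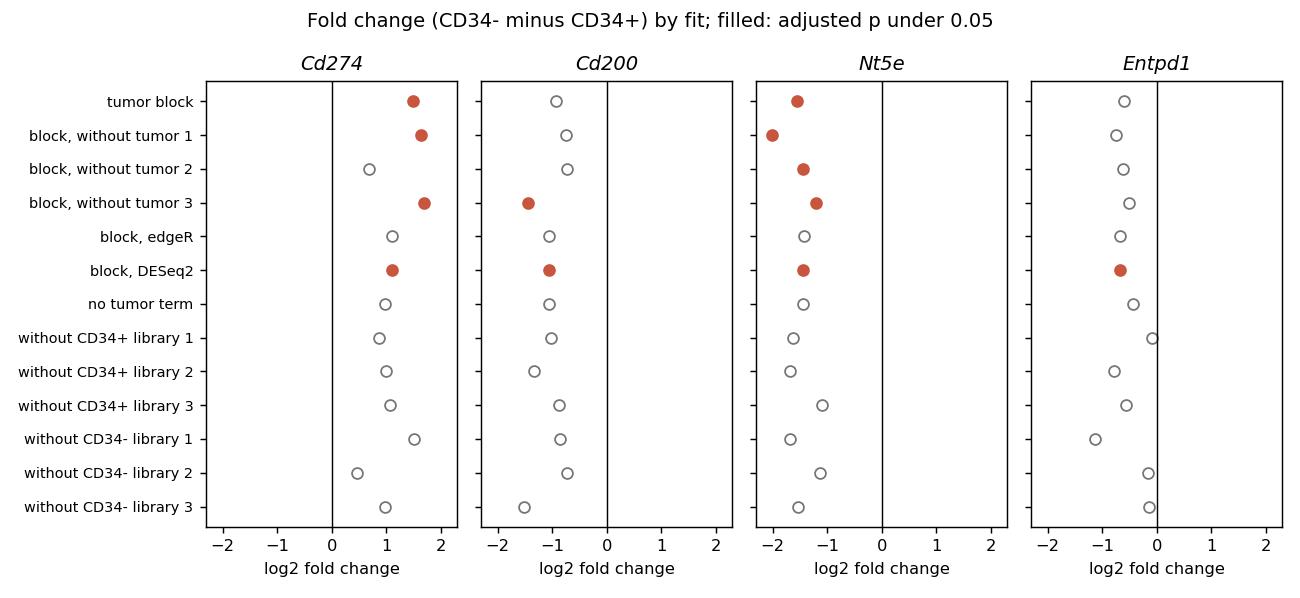
Log2 fold change (x axis) of Cd274, Cd200, Nt5e and Entpd1 under 13 fits (rows), with filled points where the adjusted p was under 0.05. The blocked Cd274 value drops from 1.48 to 0.68 without tumor 2, Nt5e stays filled without any 1 tumor, and Entpd1 without a block comes close to 0 (-0.08) without CD34+ library 1.

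The differences of the galectins between the fractions were smaller than their standard errors. Lgals1 (gene ID 16852, chr15:78926725-78930465), which encodes galectin-1, an abundant product of fibroblasts that induces death of activated T cells, had 577, 1040 and 658 CPM in CD34+ libraries 1, 2 and 3 and 652, 925 and 733 CPM in CD34- libraries. Tumor 2 gave the highest value of both groups. Its log2 fold change was 0.09 ± 0.26 (limma-voom, adjusted p = 0.9), and with the block 0.06 with a 95% interval of -0.24 to 0.35 (limma-voom, adjusted p = 0.856).

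Lgals3 (galectin-3, gene ID 16854, chr14:47373860-47386167, plus strand), which forms lattices with branched N-glycans, had 106, 91.8 and 72.8 CPM in CD34+ libraries and 112, 94.8 and 70.3 CPM in CD34- libraries. Within each tumor the pair was close, and tumor 1 was the highest and tumor 3 the lowest in both groups. The log2 fold change was 0.04 ± 0.23 (limma-voom, adjusted p = 0.957), and the blocked interval was -0.26 to 0.31.

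Lgals9 (galectin-9, gene ID 16859, chr11:78962979-78984924, minus strand), a ligand of the T cell receptor TIM-3, had 86.0, 105 and 124 CPM in CD34+ libraries and 80.3, 104 and 143 CPM in CD34- libraries. Its order was the opposite of Lgals3, with tumor 3 highest and tumor 1 lowest in both groups. The log2 fold change was 0.02 ± 0.25 (limma-voom, adjusted p = 0.976), and the blocked interval was -0.26 to 0.34. For Cd276 and the galectins the blocked intervals thus leave room for differences of up to 0.39 on the log2 scale, and the signs of these small values changed with single libraries.

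**Figure D4:**
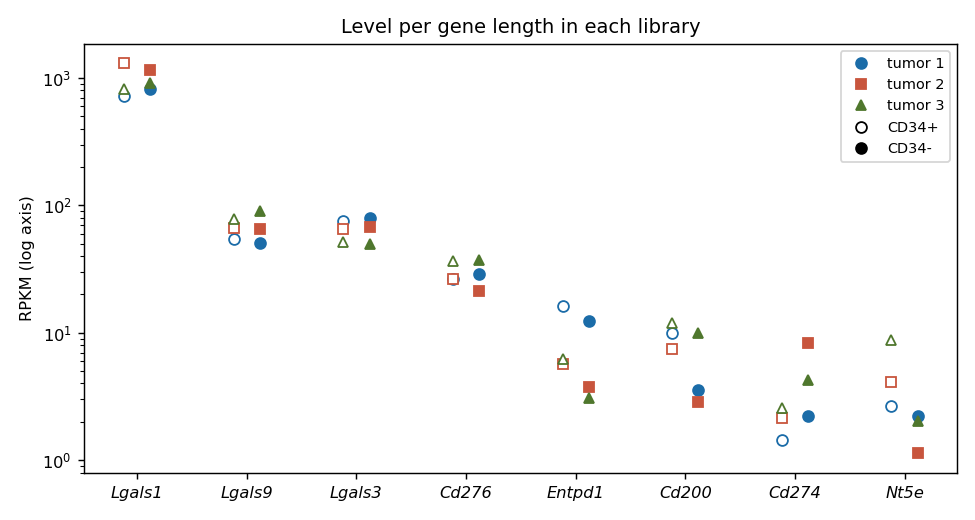
CPM divided by gene length in kilobases (RPKM, log axis) of the 8 tested genes in each library, with open symbols for CD34+, filled symbols for CD34- and shape and color by tumor. Lgals1 lies between 722 and 1300 RPKM, far above Lgals9, Lgals3 and Cd276, and the other 4 genes share a range of 1.13 to 16.3 RPKM.

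Levels were compared between genes per length of the gene model, as RPKM. Lgals1 was at 956 ± 226 RPKM (SD, n = 6 libraries), the 46th highest of the 14855 tested genes, and made up 84.8% to 90.8% of the summed RPKM of the 3 galectins. Lgals9 (67.5 ± 14.9 RPKM) and Lgals3 (64.9 ± 12.1 RPKM) were not separable, each being higher in 3 of 6 libraries. Cd276 followed at 29.5 ± 6.23 RPKM and was below Lgals3 and above Entpd1 in 6 of 6 libraries.

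The lower 4 genes overlapped in level. Entpd1 (7.88 ± 5.28 RPKM) and Cd200 (7.61 ± 3.70 RPKM) were each higher in 3 of 6 libraries, as were Cd274 (3.50 ± 2.53 RPKM) and Nt5e (3.48 ± 2.77 RPKM). Cd200 exceeded Cd274 in 5 of 6 libraries, but their ranges overlapped. The ratio of Cd276 to Cd274 in RPKM was 18.6, 12.4 and 14.1 in CD34+ libraries 1, 2 and 3 and 13, 2.55 and 8.7 in CD34- libraries, so Cd276 remained the more abundant ligand even where Cd274 was highest.

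For 5 of the 8 genes, Entpd1, Cd276 and the galectins, the tumors differed more than the fractions of any 1 tumor did, whereas for Cd274, Cd200 and Nt5e the largest difference within a tumor was the greater. The ratio of the highest to the lowest tumor mean of CPM was 3.09 for Entpd1, 2.85 for Cd274, 2.22 for Nt5e and 2.11 for Cd200, and lay between 1.52 and 1.61 for Cd276 and the galectins. Tumor 1 had the most Entpd1 and Lgals3, tumor 2 the most Cd274 and Lgals1, and tumor 3 the most Cd276, Cd200, Nt5e and Lgals9. Across the 6 libraries, which share tumors in pairs, Lgals3 and Lgals9 had a Pearson r of -0.98 in log2 CPM, Entpd1 and Lgals9 of -0.83, and Entpd1 and Cd274 of -0.81, given as descriptions.

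The genes most like the leading member of each class were ranked by Pearson r of log2 CPM over the same 6 libraries among 8943 well-expressed genes, again as a description. For Cd276 they were Clasp1 (r = 0.982), Sec16b (0.971), Il16 (0.964), Traf5 (0.963) and Qrich1 (0.959). For Entpd1 they were Tril (0.994), Gnas (0.989), Tac1 (0.989), Ube2h (0.985) and Tpt1 (0.984). For Lgals1 they were Pdxdc1 (0.987), Zfp91, Vdac2 and Timp1 (each 0.984) and Ddb1 (0.981).

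The receptors that match these ligands had few counts. Pdcd1, the PD-1 receptor of Cd274, had 2 counts over all 6 libraries. Havcr2 (TIM-3), the receptor of Lgals9, had 129 counts and a log2 fold change of -2.68 that did not pass (limma-voom, adjusted p = 0.422), and Cd200r1 had 299 counts and a log2 fold change of 2.76 that did not pass (limma-voom, adjusted p = 0.373). Both sizes leaned on CD34- library 3, the one that stood apart, where Havcr2 had 0 counts and Cd200r1 had 172. Of 11 checkpoint receptors listed, 3 could be tested and 0 passed in either fit, against 0.121% of all genes without the block and 8.57% with it. Lag3, a receptor of T cells, had the highest mean of them, at 13.9, 4.41 and 5.75 CPM in CD34+ libraries 1, 2 and 3 and 15.4, 5.53 and 10.1 CPM in CD34- libraries.

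Of the adenosine receptors, the low-affinity receptor Adora2b had the most counts, 2326 in all. Adora2b had 7.61, 13.9 and 11.9 CPM in CD34+ libraries and 6.23, 3.59 and 4.48 CPM in CD34- libraries, with no overlap and lower values in 3 of 3 tumors, as for Nt5e. Of all tested genes, 20.5% had groups that did not overlap and 46.3% had the same sign in 3 tumors, so neither trait sets the gene apart. Its log2 fold change was -1.35 without the block (limma-voom, adjusted p = 0.149) and -1.34 with it (limma-voom, adjusted p = 0.0549), and neither passed. Adora1, Adora2a and Adora3 had 91, 209 and 68 counts in all libraries together.

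Of 19 other checkpoint ligands and related immune regulators, 15 could be tested, of which 0 passed without the block and 5 with it, 2 higher and 3 lower in CD34- CAFs, against 8.57% of all genes with the block. Their median log2 fold change was 0.44, against -0.03 over all genes tested, but 0.04 without CD34+ library 1, 0.17 without CD34- library 2, 0.19 without CD34+ library 3 and 0.13 by edgeR or DESeq2, and within tumor 1 it was -0.11. Sirpa, which encodes a partner of CD47, had 63.3, 88.4 and 119 CPM in CD34+ libraries and 40.4, 46.9 and 47.9 CPM in CD34- libraries. Its groups did not overlap, as was so for 20.5% of all tested genes. Sirpa fell by 0.98 on the log2 scale with the block (limma-voom, adjusted p = 0.00681), and it also passed by edgeR with the block (adjusted p = 0.0349) and with the tumor treated as random (limma-voom, adjusted p = 0.024).

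Fgl2, a secreted protein that can act on Fc receptors and the most abundant gene of this list, fell by 1.08 with the block (limma-voom, adjusted p = 0.00782), from 1840, 626 and 778 CPM in CD34+ to 1070, 363 and 245 CPM in CD34- libraries, but not with the tumor treated as random (limma-voom, adjusted p = 0.136). Icosl, the ligand of the costimulatory receptor ICOS, fell by 1.15 with the block (limma-voom, adjusted p = 0.0371). That call was lost by edgeR with the block (adjusted p = 0.0808), with the tumor treated as random (limma-voom, adjusted p = 0.411) and in the block without tumor 1 (0.352) or tumor 2 (0.0725). Tnfsf9 (4-1BB ligand), which costimulates T cells, rose by 1.02 (limma-voom, adjusted p = 0.0174), which was lost by edgeR with the block (adjusted p = 0.0558) and with the tumor treated as random (limma-voom, adjusted p = 0.0767). H2-T23, the mouse Qa-1 molecule read by NKG2A on natural killer cells, rose by 0.96 (limma-voom, adjusted p = 0.00893), with the reservation that it has near-identical MHC class I relatives among which reads may be split, and it passed with the tumor treated as random (limma-voom, adjusted p = 0.0406) but not by edgeR with the block (adjusted p = 0.0502). The genes that fell thus include both inhibitory and costimulatory molecules, and so do those that rose.

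**Figure D5:**
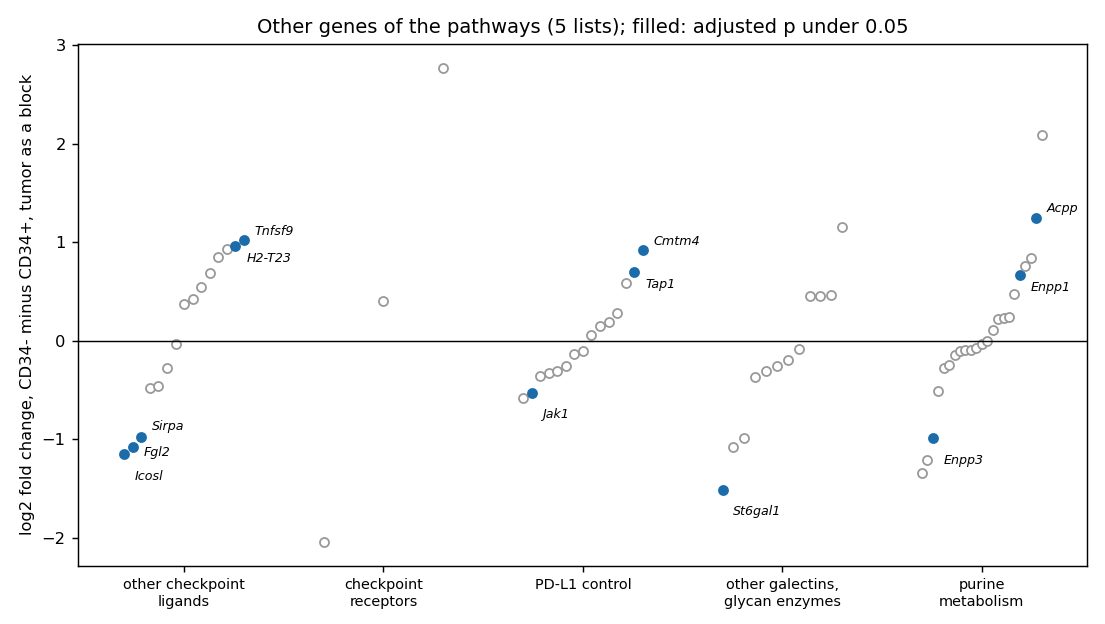
Log2 fold change with the tumor as a block (y axis, CD34- minus CD34+) of each tested gene in 5 lists, ordered by value within a list. Filled points have an adjusted p under 0.05 by limma-voom over all genes, and these 12 genes lie on both sides of 0.

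In a list of genes of interferon signaling, MHC class I antigen presentation and PD-L1 stability, 3 passed with the block, 2 higher and 1 lower, against 8.57% of all genes. All 15 listed could be tested, with a median log2 fold change of -0.10 and 0 calls without the block. With the block, Cmtm4, a stabilizer of PD-L1 protein, rose by 0.92 (limma-voom, adjusted p = 0.0161) and the peptide transporter Tap1 by 0.70 (limma-voom, adjusted p = 0.029). Jak1, a kinase of interferon receptors, fell by 0.53 (limma-voom, adjusted p = 0.0463). By edgeR with the block none of the 3 passed (adjusted p = 0.0685 for Cmtm4, 0.0714 for Tap1 and 0.126 for Jak1), and with the tumor treated as random Cmtm4 passed (limma-voom, adjusted p = 0.0287) and Tap1 (0.115) and Jak1 (0.0774) did not. In the block without tumor 2 none passed (limma-voom, adjusted p = 0.0667, 0.255 and 0.213), and without tumor 3 Jak1 did not (0.0701). The interferon pathway genes Irf1 and Ifngr1 had log2 fold changes of -0.36 and 0.16 without the block and did not pass in either fit. Within tumors 1, 2 and 3 the log2 ratios were -0.04, 0.11 and -1.05 for Irf1 and 0.37, 0.15 and -0.04 for Ifngr1. The size for Irf1 thus leaned on tumor 3, whose CD34- library stood apart.

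Among other galectins and enzymes of galectin-binding glycans, 12 of 14 listed could be tested, with a median log2 fold change of -0.09 and 0 calls without the block. With the block 1 passed, against 8.57% of all genes. St6gal1, which adds alpha-2,6 sialic acid and thereby blocks galectin-1 binding, had 12.4, 12.3 and 43.4 CPM in CD34+ libraries and 8.72, 4.67 and 9.98 CPM in CD34- libraries and fell by 1.51 (limma-voom, adjusted p = 0.0191), which was lost by edgeR with the block (adjusted p = 0.0843) and with the tumor treated as random (limma-voom, adjusted p = 0.125). The galectin-3 binding protein Lgals3bp was the most abundant of the list, at 46.5 to 103 CPM in CD34+ and 83.7 to 130 CPM in CD34- libraries, and did not pass.

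In the purine list of further nucleotidases, transporters and receptors, 23 of 27 could be tested, with a median log2 fold change of -0.05, 0 calls without the block and 3 with it, against 8.57% of all genes. Acpp, a phosphatase that can also make adenosine from AMP, rose by 1.25 (limma-voom, adjusted p = 0.00991), from 12.9, 9.44 and 9.52 CPM in CD34+ to 31.2, 25.2 and 17.1 CPM in CD34- libraries, the direction opposite to Nt5e. Its groups did not overlap, as was so for 20.5% of all tested genes. Acpp also passed by edgeR with the block (adjusted p = 0.0385) and with the tumor treated as random (limma-voom, adjusted p = 0.0254), but not in the block without tumor 2 (limma-voom, adjusted p = 0.156). Enpp1, which makes AMP from ATP, rose by 0.67 (limma-voom, adjusted p = 0.0219), and its relative Enpp3 fell by 0.99 (limma-voom, adjusted p = 0.0372). Neither passed by edgeR with the block (adjusted p = 0.052 and 0.0864), with the tumor treated as random (limma-voom, adjusted p = 0.0869 and 0.0791) or in the block without tumor 2 (limma-voom, adjusted p = 0.204 and 0.072). Adenosine kinase, Adk, had the highest mean log2 CPM of the list, 6.4, nearly level with the nucleotidase Entpd2 at 6.36. Adk was at 77.9 to 109 CPM in CD34+ and 58.9 to 97.6 CPM in CD34- libraries, and did not pass.

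Several of these genes are also expressed by other cells of a tumor, so marker lists were summed per library. In bulk samples fewer cells of a type and less RNA per cell cannot be told apart. Summed CPM of 14 myeloid markers was 17.9, 23.9 and 15.7 in CD34+ libraries 1, 2 and 3 and 32.5, 30.1 and 26.3 in CD34- libraries, with no overlap and in the direction of Cd274. Of its 12 tested genes 0 passed in either fit, against 0.121% of all genes without the block and 8.57% with it. The pan-leukocyte gene Ptprc was at or below 0.452 CPM in every library, and the macrophage gene Adgre1 was at 0.0115 to 0.184 CPM in CD34+ and 0.669 to 0.793 CPM in CD34- libraries. Of the same list, Lyz2 was at 1.79, 4.42 and 2.68 CPM in CD34+ and 6.33, 6.06 and 9.09 CPM in CD34- libraries, and Cd74, an antigen presentation gene, was at 6.65, 3.91 and 2.76 against 10.8, 6.8 and 9.4 CPM. Both were higher in the CD34- library of each tumor, as was Cd274. The list was split in direction, however. Without the block, C1qb, Tyrobp and Cd14 had log2 fold changes of 1.48, 0.91 and 0.38. Those of Cd68, C1qc, Ptprc, Csf1r, Fcer1g and C1qa were -1.53, -1.27, -0.67, -0.61, -0.57 and -0.04. These falls leaned on CD34- library 3, the one that stood apart, where Cd68, C1qc, Ptprc and Fcer1g were at 0 CPM. All of them were higher in the CD34- library of tumor 1 and lower in that of tumor 3. In tumor 2 only Ptprc and Csf1r were lower. The part of myeloid cells in the Cd274 level was not tested.

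Endothelial cells express Entpd1 and Nt5e. Summed CPM of 10 endothelial markers was 96.5, 58.5 and 130 in CD34+ and 39.1, 21 and 17.8 in CD34- libraries, in the direction of both enzymes, and was led by Tek. Of the 9 tested genes of the list, Tek was the 1 that passed with the block, against 8.57% of all genes. Without Tek the sums were 31.2, 10.4 and 9.19 against 26.5, 14.4 and 12.2 CPM and overlapped. The defining endothelial gene Pecam1 was at 12.9, 1.89 and 1.8 CPM in CD34+ and 5.6, 2.99 and 0.566 CPM in CD34- libraries, highest in both libraries of tumor 1, as was Entpd1. The part of endothelial cells in Entpd1 and Nt5e was not tested.

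Of the other lists, 12 lymphocyte markers summed to 2.12 to 6.75 CPM. Epithelial markers summed to 174, 120 and 27.8 CPM in CD34+ libraries 1, 2 and 3 and 197, 190 and 71.8 CPM in CD34- libraries, with Epcam at 0.588 to 22.4 CPM. The groups overlapped, but the CD34- sum was the higher one in each tumor, the direction of Cd274. Pericyte markers summed to 87.8 to 195 CPM in CD34+ and 208 to 256 CPM in CD34- libraries, without overlap. With the block 4 of the 8 passed as higher and 2 as lower, against 4.32% and 4.25% of all genes. Fibroblast markers summed to between 83300 and 123000 CPM in all libraries, and 3 of the 10 passed as lower with the block, against 4.25% of all genes. The part of these cells in the differences was not tested.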

How the data were processed

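RNA of FACS-sorted, snap-frozen CAFs was sequenced as TruSeq RNA v2 libraries on a NextSeq 500. The authors aligned the reads to GRCm38/mm10 and deposited raw counts per NCBI gene (featureCounts of Rsubread), not normalized and with replicates kept apart. The strand setting and the handling of multimapping reads were not given in the sources used here. Cd276, Entpd1 and Lgals1 overlap noncoding genes or pseudogenes in RefSeq whose counts were not used here, so their counts carry that uncertainty. Groups and tumor numbers came from the sample titles, and replicates are separate tumors.

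Low-count genes were filtered out by filterByExpr (minimum count 10), TMM factors were computed, and limma-voom compared the groups with Benjamini-Hochberg adjustment over all 14855 genes tested, two-sided, threshold 0.05 (R 4.3.3, limma 3.58.1, edgeR 4.0.16, DESeq2 1.42.0). Genes without a symbol (1310, with 0.457% to 0.619% of the counts) were kept, whereas the study removed them. CPM is scaled by library total and TMM factor, and that of markers by library total alone. RPKM also divides by gene length. The main design had no tumor term, since the study's methods name voom and limma and no such term. They do not give the design in full. The paper also counts genes raised both in CD34- CAFs and in tumors against hyperplastic glands. That shared set far exceeds the 3 genes called higher in CD34- CAFs without a tumor term, whereas 642 were called higher with the block. The fit without a tumor term is therefore not taken to be the study's own. Libraries are paired by tumor, each pair having been sorted from 1 tumor, and deviations from the group means correlated within tumors 1, 2 and 3 at 0.396, 0.399 and 0.221. Blocked values are therefore given beside the others. A fit with the tumor as random used duplicateCorrelation. The tests were tried on simulated data.

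The rule for the genes uses no measured value, but the genes, the lists and the tests were chosen with earlier results of these data known. Named are all 9 genes, list genes called in either fit, the gene of each list with the highest mean log2 CPM, matching receptors, and the 5 genes most like 1 gene of each class. Tek, Plgrkt, Pdgfra, Irf1, Ifngr1, Entpd2 and the myeloid markers other than Ptprc and Adgre1, outside that rule, were named after their values were seen. Of the list genes, 1 enters the counts but is not reported here. Alternatives covered scaling, filter, annotation, test tool, block and each library and tumor. Intervals for counts cover counting error only.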

Additional observations from a re-analysis of the deposited data

How the results depend on the processing

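Across 24 alternative settings the 8 tested genes gave 192 log2 fold changes, of which 161 kept direction and side of the threshold, 13 passed it, 0 lost a call and 18 changed sign. No sign change concerned Cd274, Cd200, Nt5e or Entpd1. Cd276 (-0.07) was 0.09 without CD34+ library 3, 0.14 without CD34- library 2, 0.06 without tumor 2 and 0.07 without it in the block. Lgals1 (0.09) was -0.09 without CD34+ library 1, -0.05 without CD34- library 2 and -0.01 in the block without tumor 1 or 3. Lgals3 (0.04) was -0.11 without CD34+ library 3, -0.12 without CD34- library 1, 0 without CD34- library 2 and -0.01 without tumor 1. Lgals9 (0.02) was 0 with library totals alone, -0.10 with sample quality weights, -0.11 without CD34+ library 1, -0.19 without CD34- library 3 and -0.07 without tumor 3, with or without the block. Without 1 library each, Cd276 ranged from -0.26 to 0.14, Lgals1 from -0.09 to 0.30, Lgals3 from -0.12 to 0.22 and Lgals9 from -0.19 to 0.21. The cause was not tested.

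Of these genes, 0 passed in the fit without a block, 1 by DESeq2, 2 with the replicate block, 0 with the block by edgeR, 4 with the block by DESeq2 and 1 to 3 in the block without 1 tumor. Of the genes of the other lists, 0 passed without a block, 4 by DESeq2, 1 with quality weights, 12 with the block, 3 with the block by edgeR, 18 with the block by DESeq2, 4 with the tumor as random and 7 to 16 in the block without 1 tumor. Over all genes the 18 calls became 32 with library totals alone, 9 by edgeR, 698 by DESeq2, 161 with quality weights, 1273 with the block, 575 with the block by edgeR, 1733 with the block by DESeq2 and 703 with the tumor as random. They ranged from 0 to 34 when 1 library was left out, were 86, 0 and 0 without tumor 1, 2 and 3, and in the block were 1134, 851 and 2019. By limma-voom with all libraries, among the 8 genes and the 5 lists, the block changed the calls of Cd274, Nt5e and 12 listed genes and of no other, and by DESeq2 it changed those of Cd274, Cd200 and Entpd1 and raised the listed genes called from 4 to 18. The median of the checkpoint receptors was 0.82 over the 3 that could be tested and between -1.46 and -0.76 under 8 alternatives that tested 4, 5 or 11 of them, and -0.33 over 4 without CD34- library 3. The median over all genes shifted from -0.03 to -0.05 between scalings. Low counts limit Pdcd1lg2 and the receptors that could not be tested, and 3 tumors limit the rest.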
